A study of Mus musculus with 27 samples.

Results

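Antioxidant defence genes were examined in mouse olfactory mucosa that had lost its airflow, that carried the airflow of a closed partner side, or that was ventilated normally. The set was fixed by name as 10 genes: the superoxide dismutase genes Sod1, Sod2 and Sod3, the peroxide enzyme genes Cat and Gpx1, and the NRF2 target genes Hmox1, Nqo1, Gclc, Gclm and Txnrd1. All probes annotated to these genes were taken, which gave 9 probes for 9 genes out of 29922 probes and 16637 named genes on the array. No probe is named Sod1 here, so that gene was not analysed. Each of the other 9 genes was read by 1 probe, so no gene has a second reading.

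The occluded samples are mucosa behind a nostril closed by cautery, and the open samples are mucosa behind the other nostril of the same mice. The normal samples come from other mice, which received a sham cautery and kept both nostrils open. All mice were FVB females, 25 days old, and the labels give no time between cautery and dissection. Each group had 3 biological replicates and each replicate 3 single-colour arrays, 27 arrays in all. Levels are given as normalized intensity, the mean of the 3 arrays of a replicate on the log2 scale, turned back to the linear scale. The number of arrays and mice limits the precision.

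Superoxide, formed when oxygen takes up a single electron, is turned into hydrogen peroxide by superoxide dismutases, and catalase and glutathione peroxidases remove the peroxide. The transcription factor NRF2, encoded by Nfe2l2, is held down by KEAP1 and switches on genes for glutathione synthesis, thioredoxin reduction, quinone reduction and heme breakdown when KEAP1 is modified by oxidants or electrophiles. It does so through a DNA motif called the antioxidant response element. The nasal mucosa meets inhaled oxygen, odorants and toxicants directly, so the comparison asks whether the loss or the excess of airflow alters these genes.

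Of the 10 genes, 7 have a promoter in the RefSeq table of the GRCm38.p6 build, which holds 250 bases before to 50 bases after a start. The core of the antioxidant response element, TGACNNNGC on either strand, was found for Gclm, for 1 of 3 starts of Txnrd1 and for Sod1, and not in the windows of Cat, Gpx1, Nqo1 or Sod2. By promoter it stands in 3 of 9 here, against 12.4% of 32851 promoters of the table. By gene it stands for 3 of 7, against 3781 of 27025. The matches of the NRF2 target genes whose levels were measured are shown with 16 bases on each side, on the minus strand, with the match in capitals. They are at chr3:122245407-122245447, 134 bases before the Gclm start, and at chr10:82859098-82859138, 92 bases before a Txnrd1 start.
Gclm: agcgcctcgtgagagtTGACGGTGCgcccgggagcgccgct
Txnrd1: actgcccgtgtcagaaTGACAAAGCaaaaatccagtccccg

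All 9 measured markers of mature olfactory neurons and all 6 of sustentacular cells, the supporting cells of the epithelium, lay above the noise limit on all 27 arrays. So did all 5 of bone and cartilage and 4 of 5 of skeletal muscle. Only 8.57% to 19.8% of all probes lay below the limit on an array, so this detection cannot test the tissue label. The noise limit was set per array from the scatter of its negative values, at 3 times their root mean square, and ranged over 11.6 to 24.1. Array medians lay between 123 and 274. Of the antioxidant genes, 6 lay above the limit on all 27 arrays, and Cat and Nqo1 on 26. Gclc, the catalytic subunit of the enzyme that starts glutathione synthesis, was above it on 0 occluded, 3 open and 0 normal arrays, with deposited intensities between -17.1 and 16.4. No level or difference of Gclc can be read from this probe. The account therefore rests on 8 genes, and none of their probes was saturated.

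At an adjusted p of 0.05, limma called none of the 9 probes in any of the 3 comparisons. Over all probes, 0.221% passed in occluded vs open, 0.00668% in occluded vs normal and 0% in open vs normal, so 0 of 9 lay near the background. At an unadjusted p under 0.05, 1 of 9 passed in occluded vs open against 6.19% of all probes. None passed in occluded vs normal, against 2.88%, or in open vs normal, against 1.59%. The median log2 difference of the 8 readable genes was -0.01 in occluded vs open, 0.11 in occluded vs normal and 0.12 in open vs normal. Over all probes the medians were 0.0042, 0.0063 and -0.0038. The groups did not overlap for 1 of 9 probes in each comparison, against 6.7%, 6.67% and 4.27% of all probes.

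**Figure D1:**
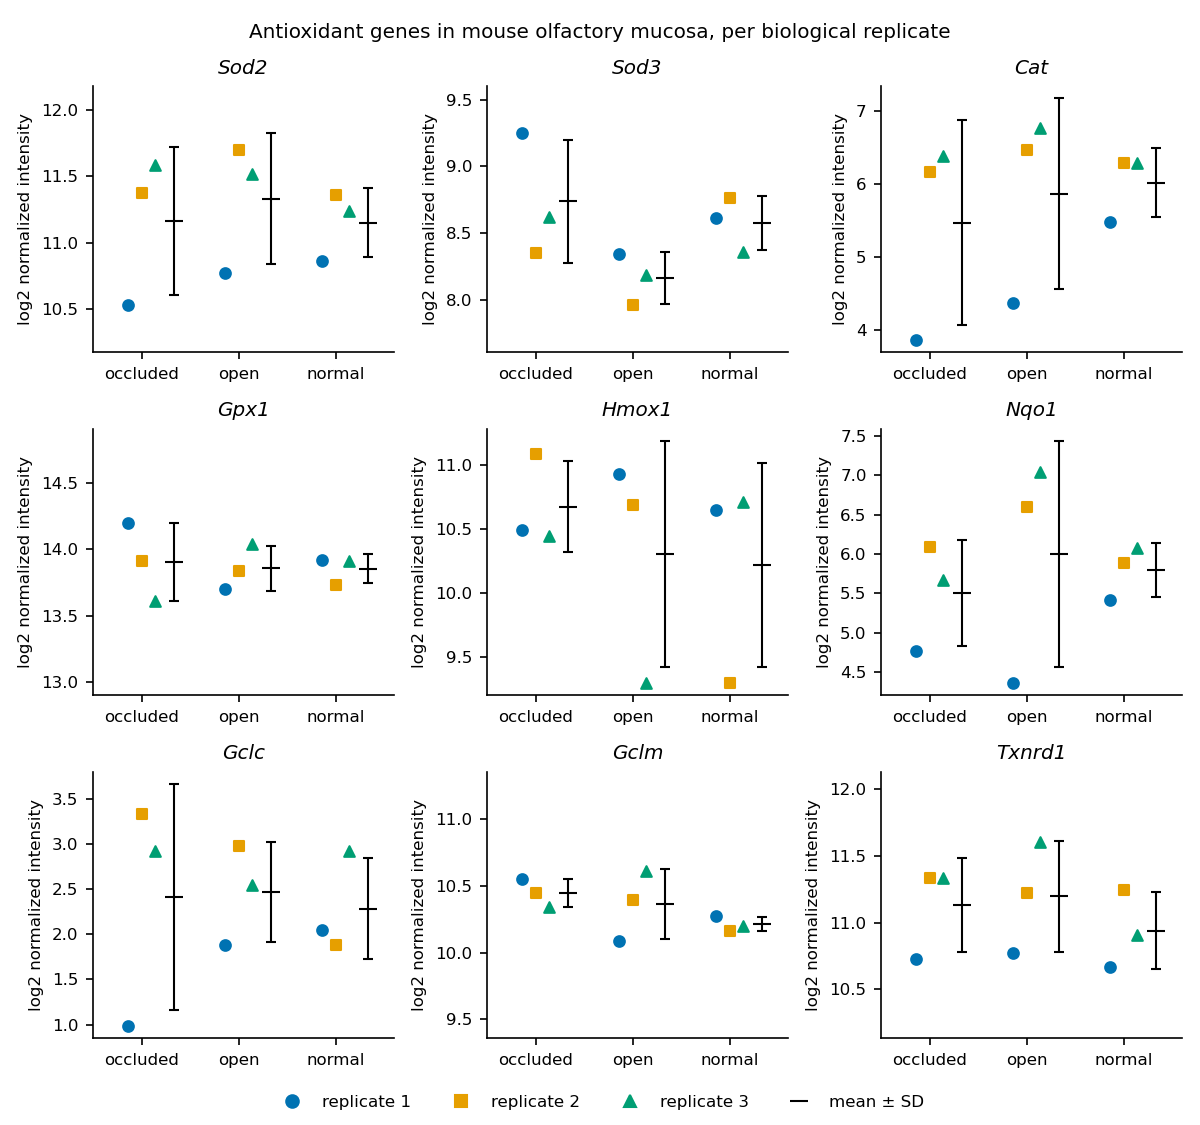
Each panel shows the log2 normalized intensity of 1 antioxidant gene in the occluded, open and normal mucosa, with 1 point per biological replicate, coloured by its number, and the mean ± SD of 3 replicates beside them. Replicate 1 is the lowest point of all 3 groups for Sod2, Cat, Nqo1 and Txnrd1, and Gclc lies below the noise limit on 24 of 27 arrays.

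Sod3, which encodes the secreted, extracellular superoxide dismutase, was the one member with an unadjusted p under 0.05. Its normalized intensity was 608, 326 and 393 in occluded replicates 1, 2 and 3, against 325, 249 and 290.1 in the open ones, and 390.5, 434 and 328 in normal mucosa. Each open sample lay below every occluded and every normal sample, by as little as 325.03 against 325.70, while occluded and normal samples overlapped. This separation is lost without 1 array of open replicate 2, described next. On the log2 scale the means were 8.74 ± 0.46 on the occluded side, 8.16 ± 0.19 on the open side and 8.58 ± 0.21 in normal mucosa (SD, n = 3 each).

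The occluded side exceeded the open side in 3 of 3 pairs, by 0.58 ± 0.19 (SE) on the log2 scale, a 1.49-fold difference with a 95% interval of 1.10 to 2.03. Adjusted over all probes this did not pass in limma (unadjusted p = 0.017, adjusted p = 0.59). Occluded vs normal was 0.16 ± 0.25 and open vs normal was -0.41 ± 0.25, with 95% intervals of -0.40 to 0.73 and -0.98 to 0.15 (adjusted p = 1.0 for both). Arrays of the same replicate differed for this probe: in open replicate 2 the deposited intensities were 132 on array a, 388 on array b and 585 on array c. On arrays a, b and c, open replicate 1 had 179, 195 and 388, and occluded replicate 2 had 407, 195 and 309. Only array a of open replicate 2 was left out, a choice made after seeing the data. The difference between the sides was then 0.36 ± 0.23 (limma unadjusted p = 0.15, adjusted p = 1.0), and that of open vs normal was -0.20. Open replicate 2 was then at 392, above occluded replicate 2 and above normal replicates 1 and 3, so the groups overlapped. Pair 2 turned to -0.27, which left the occluded side higher in 2 of 3 pairs. Between the sides, 8 of 9 markers of mature olfactory neurons were higher behind the closed nostril, among them Omp at only 0.0031, while Slc17a6 was at -0.57. Omp was at -3.9e-05 in occluded vs normal and -0.0031 in open vs normal, so its probe hardly moved. Saturation of the marker probes is not given here. The sums of these markers, which include Omp, were highest on the occluded side. The summed normalized intensity of the neuron markers was 227557 to 257071 in occluded, 195957 to 204235 in open and 203841 to 209446 in normal samples. All 6 markers of horizontal basal cells, the reserve stem cells, lay lower on the occluded side, with sums of 15910.3 to 18539, 19170 to 23771 and 17940 to 22565 in occluded, open and normal samples. All 6 of Bowman's glands, all 5 of globose basal cells and the 2 of red blood cells also lay lower on the occluded side than on the open side. All 5 of bone and cartilage lay higher there. The part of cell makeup in the Sod3 difference was not tested, and in bulk tissue fewer cells of a type and less RNA per cell cannot be told apart.

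Sod2, the manganese superoxide dismutase of mitochondria, differed little between the groups. The probe read 1482, 2661 and 3066 in occluded replicates 1 to 3, 1754, 3328 and 2937 in open ones and 1864, 2621 and 2413 in normal ones. All groups overlapped, and replicate 1 was the lowest in each. The log2 differences were -0.17 ± 0.24 in occluded vs open, 0.01 ± 0.31 in occluded vs normal and 0.18 ± 0.31 in open vs normal. The 95% interval between the sides was -0.72 to 0.38, so a change of up to 0.61-fold or 1.30-fold lies within it.

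Cat encodes catalase, the peroxide-splitting enzyme of peroxisomes, and was read at low intensity. Its normalized intensity was 14.5, 71.6 and 83.5 in occluded replicates, 20.6, 88.2 and 109 in open ones and 44.3, 78.0 and 78.1 in normal ones. Replicate 1 was far below the others in both treated groups and the lowest in normal mucosa too. Within the pairs the occluded side was lower in 3 of 3, with log2 differences of -0.51, -0.30 and -0.38. The fit across groups gave -0.40 with an SE of 0.53 and a 95% interval of -1.61 to 0.81 (limma adjusted p = 1.0). Fitted on both sides alone, the same difference had an SE of 0.15 when each pair had its own term, a fixed replicate block (limma unadjusted p = 0.055, adjusted p = 0.88). With the mouse as a random block on those samples its SE was 0.60. Cat was -0.55 ± 0.68 in occluded vs normal and -0.15 ± 0.68 in open vs normal. Without replicate 1 of both sides they were 0.26 ± 0.31 and 0.60 ± 0.31, and without replicate 3 they were -1.01 and -0.60. When 50 was first added to each intensity, the difference between the sides was -0.17.

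Gpx1, the cytosolic glutathione peroxidase, was bright and steady. It read 18724, 15381 and 12515 in occluded, 13304, 14633 and 16786 in open and 15520.2, 13572 and 15379 in normal replicates. The groups overlapped, and the pairs ran both ways, with the occluded side higher by 0.49 in pair 1 and lower by 0.42 in pair 3. The log2 differences were 0.05 ± 0.18, 0.05 ± 0.23 and 0.0042 ± 0.23 in occluded vs open, occluded vs normal and open vs normal. Their 95% intervals were -0.36 to 0.45, -0.46 to 0.57 and -0.51 to 0.52.

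**Figure D2:**
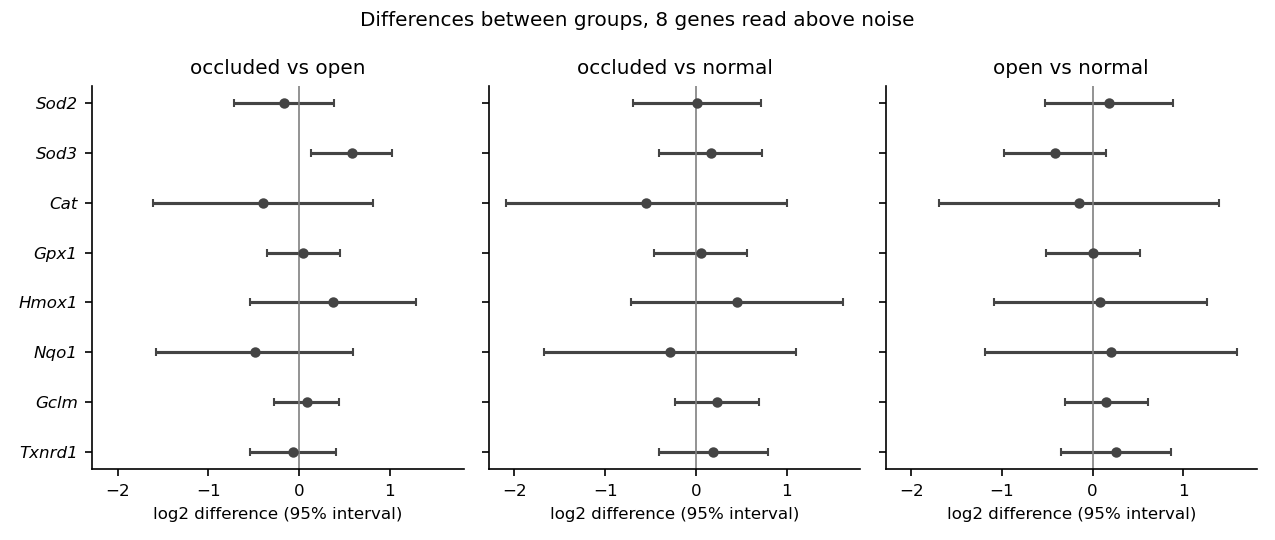
Log2 differences of the 8 readable genes are plotted with their 95% intervals for occluded vs open, occluded vs normal and open vs normal. All intervals hold 0 except that of Sod3 in occluded vs open (0.13 to 1.02), and those of Cat, Nqo1 and Hmox1 are the widest.

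Among the NRF2 targets, Gclm, the modifier subunit of the enzyme that starts glutathione synthesis, varied least. Its normalized intensity was 1499.6, 1393 and 1302 in occluded, 1087, 1350.1 and 1565 in open and 1239, 1148 and 1179 in normal replicates. The lowest occluded replicate lay above the highest normal one, while open samples spanned both. The difference was 0.23 ± 0.20 in occluded vs normal (95% interval -0.23 to 0.69, limma adjusted p = 1.0). It was 0.08 ± 0.16 in occluded vs open and 0.15 ± 0.20 in open vs normal, with intervals of -0.28 to 0.44 and -0.31 to 0.61.

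Txnrd1, the cytosolic thioredoxin reductase, had a normalized intensity of 1695, 2577 and 2584 in occluded, 1743, 2393 and 3108 in open and 1627, 2423 and 1915 in normal replicates. The groups overlapped and replicate 1 was again the lowest of each. The log2 differences were -0.07 ± 0.21 in occluded vs open, 0.19 ± 0.27 in occluded vs normal and 0.26 ± 0.27 in open vs normal, with a 95% interval of -0.54 to 0.41 between the sides.

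Hmox1, which encodes the inducible heme oxygenase, had 2 samples apart from the rest. Levels of 1441, 2176 and 1394 in occluded, 1955, 1649.6 and 629 in open and 1603, 629 and 1679 in normal replicates were read. Open replicate 3 and normal replicate 2 were the low ones, and each was low on all 3 of its arrays. The same samples had the highest summed intensity of 7 neutrophil and macrophage markers, at 21463 in open replicate 3 and 23504 in normal replicate 2, against 8348 to 16783 in the other samples. They were the highest in 3 of 13 marker lists. For Bowman's glands, the mucus glands of the tissue, they had sums of 103012 and 114074 against 19002 to 92469. For respiratory epithelium they had 101367 and 106442 against 79919 to 101350.4. The 2 samples were picked by their low Hmox1 before the 13 lists were compared, a choice made after seeing the data. The part of these cell types in the Hmox1 levels was not tested. The difference was 0.37 ± 0.40 in occluded vs open, 0.46 ± 0.51 in occluded vs normal and 0.09 ± 0.51 in open vs normal. The 95% intervals of the first and the second were -0.55 to 1.28 and -0.71 to 1.63. Without replicate 3 of both sides the first was -0.02, and without normal replicate 2 the second was -0.0052.

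Nqo1, the quinone reductase often used as a readout of NRF2, was dim. Levels were 27.3, 67.8 and 51.2 in occluded, 20.6, 96.4 and 132 in open and 42.6, 59.4 and 67.3 in normal replicates. Both the lowest and the highest value were open samples, so that group spanned the others. The differences were -0.49 ± 0.48 in occluded vs open, -0.28 ± 0.61 in occluded vs normal and 0.21 ± 0.61 in open vs normal, none of which passed (limma adjusted p = 0.99, 1.0 and 1.0). The size moved with the replicates kept: without replicate 1 of both sides, occluded vs open was -0.94 ± 0.33 (limma unadjusted p = 0.028, adjusted p = 1.0). Open vs normal was then 1.02 ± 0.27 (unadjusted p = 0.0079, adjusted p = 0.91). Without replicate 3 of both sides they were -0.05 and -0.31.

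**Figure D3:**
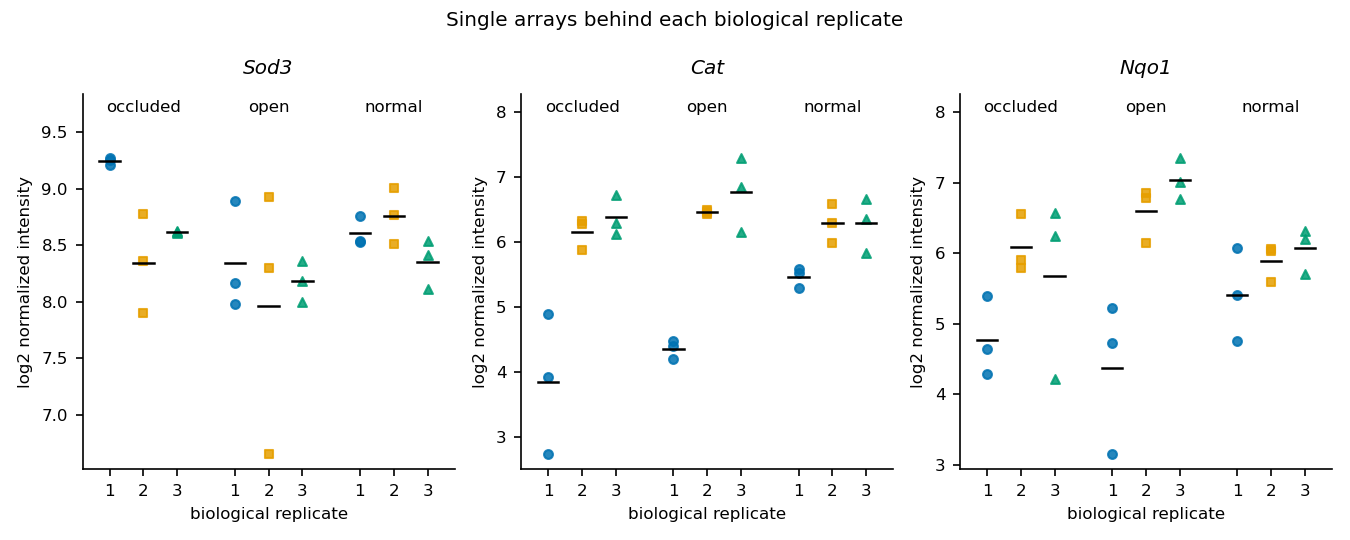
The log2 normalized intensity of Sod3, Cat and Nqo1 is shown on each of the 27 arrays, with arrays of 1 biological replicate above its number and a bar at their mean, for occluded, open and normal mucosa. The lowest Sod3 array belongs to open replicate 2, and in each group all 3 Cat arrays of replicate 1 lie below all arrays of replicates 2 and 3.

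Across the 9 biological replicates the number of the replicate divided several of these genes more than the treatment did. Replicate 1 was the lowest in all 3 groups for 4 genes, Sod2, Cat, Nqo1 and Txnrd1, which was so for 14.1% of all probes, and it was the highest in all 3 for none, against 18.9% of all probes. The replicate number held 84.4% of the sum of squares of Sod2, 81.4% of that of Cat, 70.1% of that of Txnrd1 and 67.8% of that of Nqo1. The group held 4.71%, 5.81%, 12.6% and 6.45%. Sod3 and Gclm were the other way round, with 47.5% and 33.4% by group against 23.7% and 4.18% by number. The Sod3 shares include array a of open replicate 2, without which its separation is lost. Over all probes the medians were 12.8% by group and 35.3% by number. Arrays of replicate 1 had medians of 123 to 171, against 146 to 274 for replicate 2 and 149 to 269 for replicate 3. The normal mice are other animals than the treated ones, and the labels do not say what their numbers share. Its part in the differences was tested only by a fit with the number as a fixed replicate block, chosen after seeing the data, in which 0 of 9 members passed in each comparison.

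Over the 9 replicates, the 2 genes nearest to each member in pattern were found among 13038 named genes read above noise and unsaturated on all arrays. For Sod3 these were Dnpep and Amelx (Pearson r = 0.960 and 0.954), for Hmox1 Ndufa12 and Flywch1 (r = 0.956 and 0.943), for Gpx1 Fip1l1 and Neil1 (r = 0.95 and 0.945), and for Gclm Tm7sf2 and Tprkb (r = 0.895 and 0.868). For Txnrd1 they were Dld and Herpud2 (r = 0.989 and 0.987), and for Sod2 Ptpra and Pigp (r = 0.984 and 0.982). The number of genes with r over 0.9 was 355 for Txnrd1 and 503 for Sod2, the members that share the low replicate 1, against 49 for Sod3, 14 for Hmox1, 8 for Gpx1 and 0 for Gclm. These are descriptions of 9 samples, in which the occluded and open sides come from the same mice, and no test was made.

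The wider pathway was read from a list of 83 further genes, of which 79 had a named probe. None of the 79 passed in limma in any comparison. The median log2 difference was -0.00016 in occluded vs open, with 39 genes above and 40 below 0. It was 0.05 in occluded vs normal, with 48 above and 31 below, and 0.08 in open vs normal, with 55 above and 24 below. Over all probes the share above 0 was 50.7%, 51.0% and 49.1%. Among the 11 sensors and partners of NRF2, 3 lay above and 8 below 0 in occluded vs open, with a median of -0.07. In occluded vs normal 9 lay above 0 with a median of 0.09, and in open vs normal all 11 did with a median of 0.19; these comparisons share the normal samples. Nfe2l2 itself was -0.09 ± 0.39 in occluded vs open, 0.09 ± 0.50 in occluded vs normal and 0.19 ± 0.50 in open vs normal. Keap1 was 0.12 ± 0.29, 0.73 ± 0.36 and 0.61 ± 0.36 in the same comparisons, and did not pass in any (adjusted p = 1.0). These genes were chosen for mention after their values were seen.

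**Figure D4:**
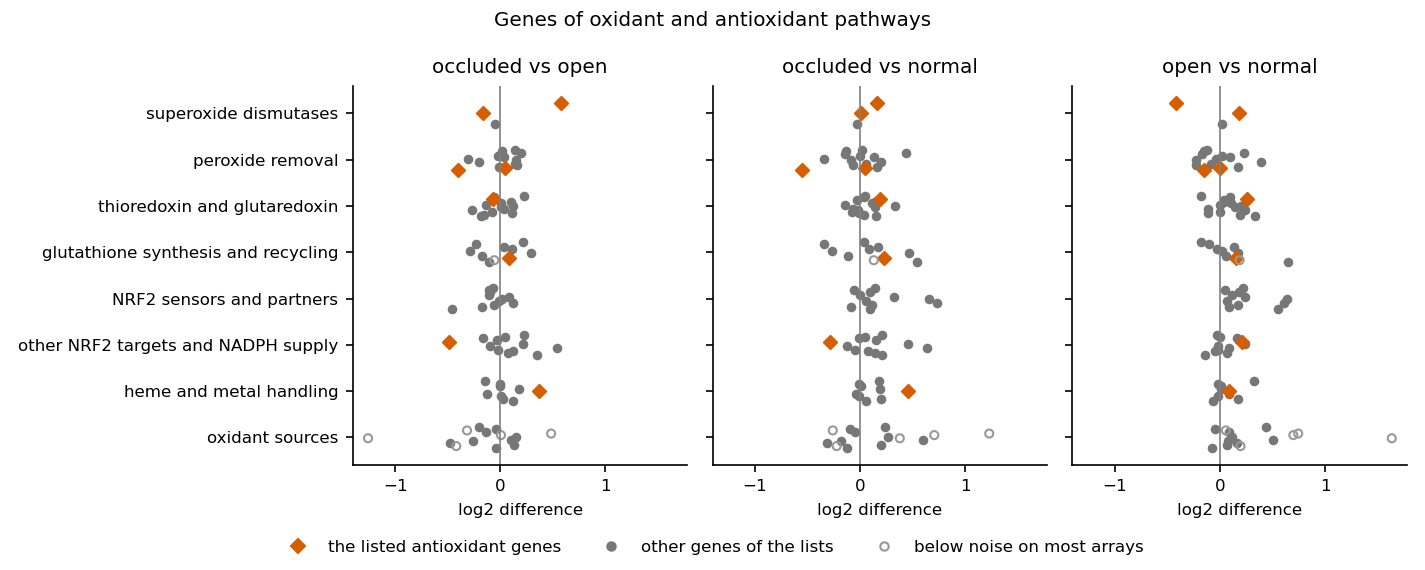
Each point is the log2 difference of 1 gene of the oxidant and antioxidant lists in occluded vs open, occluded vs normal and open vs normal, in rows by list. Filled diamonds are the antioxidant genes of this account, and open rings are genes dimmer than the noise limit on most arrays. None of the points passed the test.

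Of the wider list, the smallest p-values above 0 between the sides belonged to Ephx1, the microsomal epoxide hydrolase, Ggt5, a gamma-glutamyl transferase, and the pentose phosphate enzyme gene Tkt. Ephx1 had 29935, 24251 and 22570.2 on the occluded side, against 22828, 16860 and 13774 on the open side, and 18668, 10993 and 21460 in normal mucosa. It was higher on the occluded side in 3 of 3 pairs, with a log2 difference of 0.54 ± 0.23, and it exceeded normal mucosa by 0.63 ± 0.29 (limma adjusted p = 0.77 and 1.0). Ggt5 was higher in 3 of 3 pairs, by 0.29 ± 0.14, and a further, dimmer probe of it by 1.06 ± 0.24 (limma adjusted p = 0.83 and 0.23). Against normal mucosa these probes differed by 0.47 ± 0.17 and 0.70 ± 0.31. Tkt differed by 0.23 ± 0.13 between the sides, in 3 of 3 pairs, and its further probe by 0.32 ± 0.22.

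The smallest p-values below 0 between the sides were those of Ncf1, Duoxa1 and Xdh, all of the list of oxidant sources. Of the 14 measured genes of that list, 5 lay above and 9 below 0, with a median of -0.09. Ncf1, a subunit of the phagocyte NADPH oxidase, lay above the noise limit on 2 of 27 arrays, so no fold is given. Duoxa1, which matures the epithelial oxidase DUOX1, differed by -0.48 ± 0.35. Xdh, xanthine dehydrogenase, differed by -0.21 ± 0.15 (limma unadjusted p = 0.21 and adjusted p = 0.98 for both genes). Xdh had 965, 1047 and 948 in occluded, 1165, 1140.5 and 1107 in open and 870.4, 659 and 1019.9 in normal replicates, so the open side was the highest, at 0.44 ± 0.20 over normal mucosa (adjusted p = 1.0).

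Chac1, a glutathione-degrading enzyme gene of the stress response, lay above normal mucosa on both sides of the treated mice. Its normalized intensity was 755, 914 and 751 in occluded and 1019, 757 and 837 in open replicates, against 699, 526 and 459 in normal ones. Each side lay apart from normal mucosa, while the sides overlapped each other, with differences of 0.54 ± 0.23 in occluded vs normal and 0.64 ± 0.23 in open vs normal (limma unadjusted p = 0.046 and 0.022, adjusted p = 1.0 for both). The comparisons share the normal samples. On the low side, Slc3a2, Gpx8 and Idh1 had the smallest p-values in occluded vs normal (-0.34 ± 0.34, -0.34 ± 0.37 and -0.12 ± 0.17), though a further Idh1 probe was at 0.02 ± 0.32. Gpx3, Gpx7 and Prdx5, all peroxide enzymes, had them in open vs normal (-0.22 ± 0.23, -0.23 ± 0.26 and -0.15 ± 0.20), though a further Prdx5 probe was at 0.11 ± 0.27. None of these passed (limma adjusted p = 1.0).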

How the data were processed

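Total RNA of olfactory mucosa was amplified with amino-allyl UTP and coupled to Cy5, per the labels' protocols, and hybridised 1 sample per array. The authors deposited linear probe intensity values for 29922 probes on 27 arrays. For scanning and scaling, the sources used here give no method. Each array held 1.45% to 3.93% values of 0 or less, as after a background subtraction.

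Non-positive values were raised to 0.912, the smallest positive one. After log2, quantile normalization preceded averaging over the 3 arrays of each replicate. In R 4.3.3 (statmod 1.5.0), limma 3.58.1 fitted 3 groups over 9 values and all probes, with mouse as a random block (duplicateCorrelation, 0.389), two-sided, with Benjamini-Hochberg adjustment over all probes. Intervals are limma's 95% confidence intervals. Fits were tested on simulated data.

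Both sides came from the same mice per the design text, and matching them by replicate number rests on the titles. Deviations of same-numbered sides from their group means correlated at 0.516, -0.0044 and 0.142 for numbers 1 to 3. For same-numbered samples of other mice these were 0.353, 0.067 and 0.0015 (occluded and normal) and 0.394, 0.104 and 0.071 (open and normal). The titles' letters were read as repeat arrays.

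The array's annotation named 21020 probes, and 3410 symbols were updated through RefSeq. The representative probe of a gene is the brightest. Besides the members, the 3 genes of the wider list with the smallest p in each direction and comparison were named. The members and lists were chosen with earlier results of these data known. Alternatives covered the block, normalization, averaging, low values, dim probes, the prior and each replicate left out.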

Additional observations from a re-analysis of the deposited data

How the results depend on the processing

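None of the antioxidant genes passed the adjusted test in occluded vs open under any of 20 alternatives, or in occluded vs normal and open vs normal under any of 19. The smallest adjusted p of a member was 0.284 in limma, for Sod3 without replicate 2. Over all probes, the count of calls in occluded vs open lay between 0 and 141 against 66 in the fit reported. With no replicate block it was 3. With both sides alone it was 14 with the mouse as a random block and 0 with a fixed replicate block for each pair. It was 102 with an intensity trend in the prior, and 0, 35 and 6 without replicates 1, 2 and 3. In occluded vs normal it lay between 0 and 117 against 2. The block changed no call of a member at the adjusted threshold. The unadjusted limma p of Sod3 in occluded vs open did depend on the setting. It stayed under 0.05 in 15 of the 20 alternatives and was 0.053 with no replicate block.

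Some member differences turned sign, the cause of which was not tested. They were not only small ones: Cat at -0.55 and Hmox1 at 0.46 in occluded vs normal, and Hmox1 at 0.37 in occluded vs open, were among them. Open vs normal was 0.0078 for Cat with no normalization between arrays, and -0.0013 for Hmox1 with the median of the arrays. For Gpx1 it was -0.032 with median centring, -0.024 with the median of the arrays and -0.035 with open replicate 2 over arrays b and c, an alternative chosen after seeing the data. When replicates were left out in turn, occluded vs open ran between -0.15 and 0.033 for Txnrd1, -0.020 and 0.77 for Hmox1, -0.18 and 0.28 for Gpx1, and -0.11 and 0.25 for Gclm. Occluded vs normal ran between -1.01 and 0.26 for Cat, -0.092 and 0.36 for Sod3, -0.0052 and 0.70 for Hmox1, -0.20 and 0.33 for Sod2, -0.093 and 0.20 for Gpx1, and -0.57 and 0.088 for Nqo1. Open vs normal ran between -0.60 and 0.60 for Cat, -0.37 and 0.59 for Hmox1, -0.0040 and 0.46 for Sod2, -0.085 and 0.083 for Gpx1, and -0.31 and 1.02 for Nqo1.

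Averaging the probes of a gene changes nothing here, since each member has 1 probe. Gclc could not be read at these intensities.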
